A study of Mus musculus with 4 samples.

Results

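Tbr1, Neurod1, Neurod2, Neurod6, Emx1, Emx2, Fezf2 and Bcl11b encode transcription factors of the cortical projection neuron lineage. They were looked up by gene name in the annotation of a mouse expression array, and 7 of the 8 genes were found, through 8 of its 44170 targets. A target is a set of probes for 1 transcript, and the array held 24171 genes with a symbol. Emx1 was not analysed here. By the labels the arrays came from Neuro2a (N2a) cells, a mouse neuroblastoma line, transfected with an siRNA against Men1 (2 arrays) or with a scramble siRNA that serves as the control (2 arrays). Men1 encodes menin, a scaffold of complexes that methylate histone H3 at lysine 4. The RNA is total RNA from cells grown in serum, each array was hybridised in 1 colour, and Men1 was targeted by siRNA, not deleted. All arrays share the 1 cell line, and no label ties the replicates to separate cultures, which means that p-values measure the spread between these arrays only, and this spread may be technical.

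Cortical projection neurons are the excitatory, glutamatergic neurons of the cerebral cortex and arise from progenitors of the dorsal telencephalon. The Emx homeobox factors act in those progenitors. The basic helix-loop-helix (bHLH) factors of the NeuroD family act as neurons are born and mature, binding E-boxes as dimers with E proteins. In postmitotic neurons Tbr1 directs the deep-layer corticothalamic fate, while Fezf2 and, downstream of it, Bcl11b direct the subcerebral fate. Neuroblastoma is instead a tumour of the sympathoadrenal lineage, of which Hand1 is a defining factor.

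No array stood outside its group by correlation across targets: the Men1 siRNA arrays correlated with r = 0.945 and the scramble siRNA arrays with r = 0.948, against 0.901 to 0.934 between groups. Targets are not independent replicates. In 3 of the 4 array files the image name stored inside differs from the name of the file, and in the authors' value table the columns of the 2 scramble siRNA arrays hold each other's values, equal at 20617 of 20620 targets (relative tolerance 1e-04). The replicate numbers within each group are therefore not settled; first and second below mean the number the labels give to the array file. Neuroblast markers were mixed. Hand1 was near background, with 42.1 and 42.6 on the Men1 siRNA arrays and 43.7 and 58.1 on the scramble siRNA arrays. Chga, a granule protein gene of neuroendocrine cells, read 6539 and 5266 with Men1 siRNA and 3178 and 4484 with scramble siRNA, and Chgb, a related one, 5781 and 5126 with Men1 siRNA and 3177 and 3542 with scramble siRNA. Mycn, a proto-oncogene of neuroblastoma, read 1607 and 1465 with Men1 siRNA and 877 and 1420 with scramble siRNA. Gata3 read 73.2 and 114 with Men1 siRNA and 259 and 403 with scramble siRNA, and Gata2 is given with its list. An intensity of 100 is used below as the limit above background, because the authors' value table holds exactly the 20620 targets that reach it on all 4 arrays. The targeted gene was lower with Men1 siRNA, as the labels have it, but did not pass the test. At its brighter target (gene ID 17283, chromosome 19, 6335113 to 6340885 on MM9) Men1 read 2764 and 4109 with Men1 siRNA and 6985 and 6222 with scramble siRNA, a log2 change of -0.97 ± 0.36 (moderated SE, n = 2 arrays per group; limma adjusted p = 0.336). The other Men1 target read 2989 and 3802 with Men1 siRNA and 3843 and 3824 with scramble siRNA, a log2 change of -0.19 ± 0.33 (limma adjusted p = 0.842).

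The promoters of 4 of the genes are printed here because their arrays separated by group and they hold motifs bound by bHLH or homeobox factors. Each is the 300 bases from 250 before to 50 after the transcription start, from RefSeq on GRCm38.p6, written 5′ to 3′ on the strand of the gene. Capitals mark CANNTG, the E-box bound by bHLH factors, and TAATTA, a core of homeobox sites. Both motifs were searched on both strands, each reads the same on either strand when reverse complemented, and no match of one overlapped a match of the other. The windows are chr2:61804203-61804502 (plus strand) for Tbr1, chr2:79456587-79456886 (minus strand) for Neurod1, chr11:98329596-98329895 (minus strand) for Neurod2 and chr19:59458440-59458739 (plus strand) for Emx2.
Tbr1: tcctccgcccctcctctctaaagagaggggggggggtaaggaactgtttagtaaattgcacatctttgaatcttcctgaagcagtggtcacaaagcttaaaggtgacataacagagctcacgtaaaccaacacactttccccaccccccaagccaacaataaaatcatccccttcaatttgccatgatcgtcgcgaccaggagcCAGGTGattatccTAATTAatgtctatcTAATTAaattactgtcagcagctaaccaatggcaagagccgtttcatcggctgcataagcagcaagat
Neurod1: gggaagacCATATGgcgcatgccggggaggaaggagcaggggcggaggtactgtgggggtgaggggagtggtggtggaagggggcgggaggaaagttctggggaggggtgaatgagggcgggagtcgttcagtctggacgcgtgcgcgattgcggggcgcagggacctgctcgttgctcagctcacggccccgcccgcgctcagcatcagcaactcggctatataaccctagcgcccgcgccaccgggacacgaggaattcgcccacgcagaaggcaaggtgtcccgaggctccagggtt
Neurod2: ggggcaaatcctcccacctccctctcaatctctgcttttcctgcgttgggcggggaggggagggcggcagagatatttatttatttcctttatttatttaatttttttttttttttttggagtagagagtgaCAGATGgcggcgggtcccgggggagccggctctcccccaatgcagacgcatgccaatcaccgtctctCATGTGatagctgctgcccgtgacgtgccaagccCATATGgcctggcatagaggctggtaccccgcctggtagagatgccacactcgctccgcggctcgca
Emx2: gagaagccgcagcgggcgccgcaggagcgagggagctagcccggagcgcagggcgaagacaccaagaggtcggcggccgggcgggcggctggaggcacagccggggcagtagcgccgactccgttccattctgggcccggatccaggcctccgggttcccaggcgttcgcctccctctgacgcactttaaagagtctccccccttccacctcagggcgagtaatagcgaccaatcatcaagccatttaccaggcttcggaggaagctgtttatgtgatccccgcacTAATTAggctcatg

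A CANNTG lay in the windows of 4 of the 7 genes, against 72.3% of all 32851 RefSeq promoters of this length. Neurod2 held 3 of them, CAGATG at position -118, CATGTG at -51 and CATATG at -17, counted from the transcription start to the first base of the match. Promoters with 3 or more made up 17.6% of all. Neurod6 held 2, at -162 and -132, Neurod1 held 1, at -242, and Tbr1 held 1, at -46. TAATTA lay in the windows of Tbr1, at -33 and -18, and of Emx2, at 37 bases after the start, so in 2 of the 7 genes against 5.29% of all promoters. Only 0.49% of promoters held 2 or more, as Tbr1 did. Fezf2 and Bcl11b held neither motif in these windows. CpG pairs, the sequence feature bound by the CXXC domain of the menin partner KMT2A, numbered 26 in Neurod1 and in Emx2, 20 in Fezf2, 16 in Neurod2, 9 in Bcl11b, 7 in Tbr1 and 3 in Neurod6, where the median promoter had 7. A match is a description of the letters and not a binding site, and the arrays measured no binding.

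**Figure D1:**
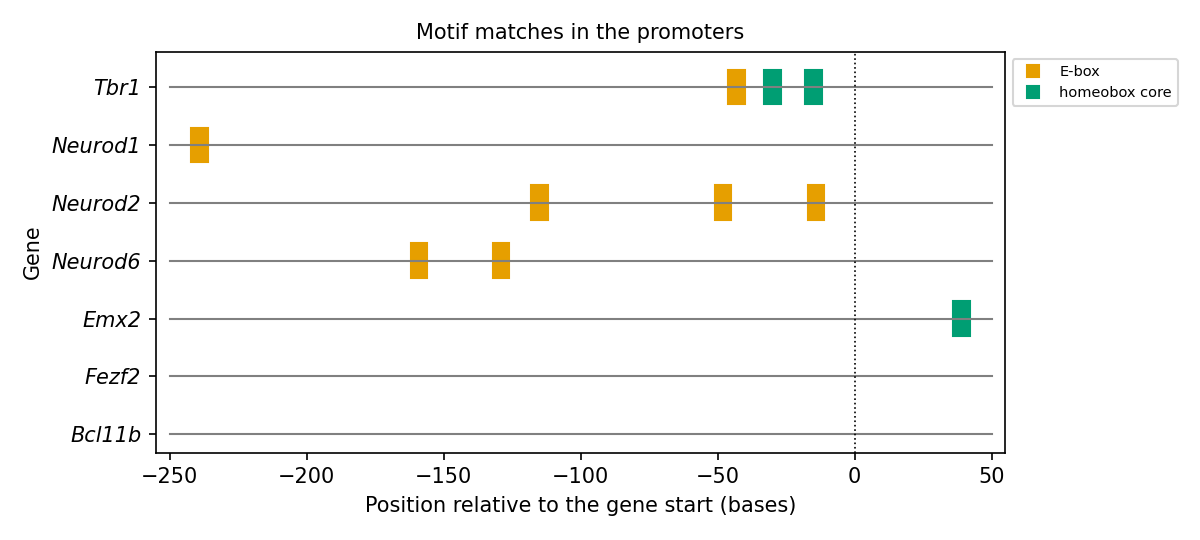
Positions of CANNTG (E-box) and TAATTA (homeobox core) in the RefSeq promoter windows of the 7 genes, as bases from the transcription start on the x axis, with 1 line per gene. Neurod2 carries 3 E-boxes, Tbr1 carries both motifs, and Fezf2 and Bcl11b carry neither.

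With Men1 siRNA, the brightest targets of Tbr1, Neurod1, Neurod2 and Bcl11b lay higher on both arrays than on either scramble siRNA array, by 1.62 to 1.91 times in the means of log2 values, and Emx2 lay lower on both, at 0.470 times. Neurod6 and Fezf2 overlapped between the groups. None of the 8 targets passed the test across all targets (limma, Benjamini-Hochberg adjusted p under 0.05), where 150 of 44170 targets or 0.340% did, and Emx2 was the only 1 of the 8 with an unadjusted p under 0.05, a level that 13.6% of all targets reached. In the direction of Emx2, lower with Men1 siRNA, 7.41% of all targets did. Groups that did not overlap were common on these arrays, at 46.6% of all targets: 25.3% lay higher and 21.3% lower on both Men1 siRNA arrays, against 4 and 1 of these 8. Over 1 target per gene, 6 of the 7 log2 changes were positive with a median of 0.69, beside 54.5% positive and a median of 0.06 over all 24171 genes. With 1 array left out, 4 of the 7 were positive with a median of 0.36 (without the first scramble siRNA array) or 0.56 (without the first Men1 siRNA array), and 6 with a median of 0.83 (without the second Men1 siRNA array) or 1.06 (without the second scramble siRNA array). In RNA from a whole culture, fewer cells of a type and less RNA per cell cannot be told apart.

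**Figure D2:**
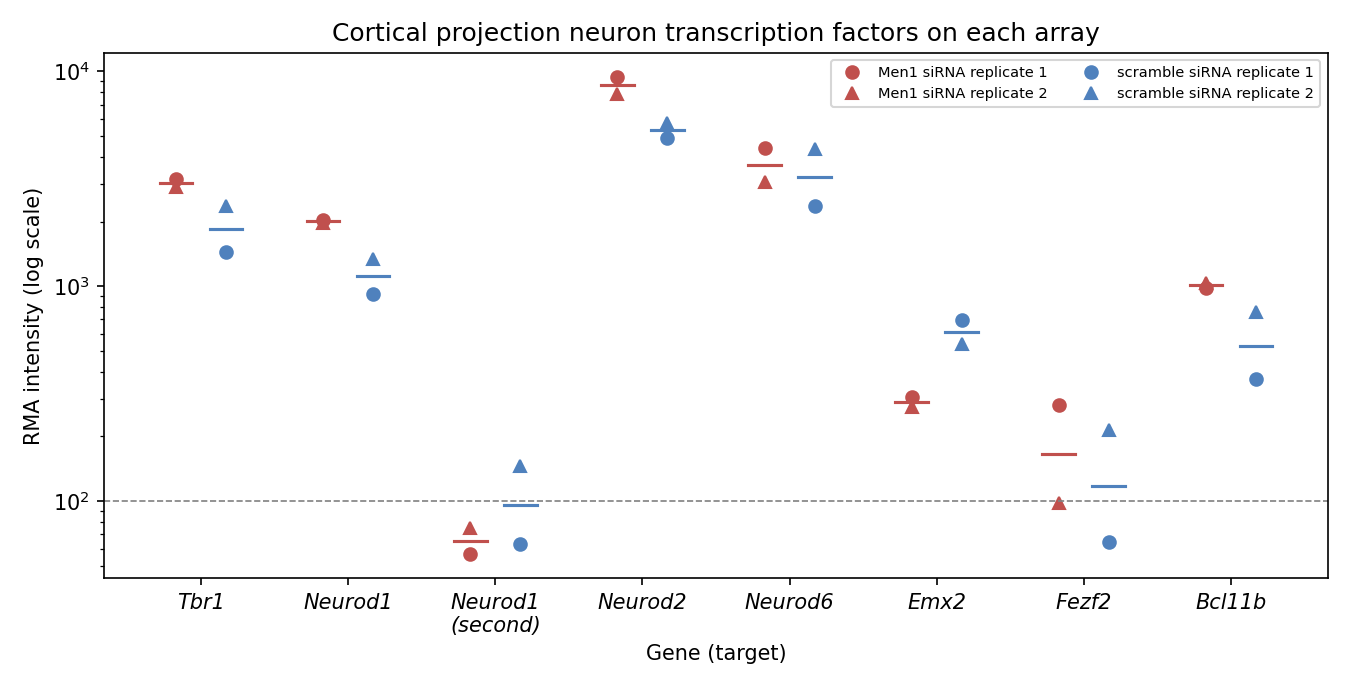
Intensity (log axis) of each of the 8 targets on every array, Men1 siRNA arrays in red on the left and scramble siRNA arrays in blue on the right of each pair. Circles are replicate 1, triangles replicate 2, bars the geometric mean of 2 arrays and the dashed line an intensity of 100; Tbr1, Neurod1, Neurod2 and Bcl11b have both red points above both blue points, and Emx2 has both below.

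Emx2, which patterns the dorsal telencephalon and acts in cortical progenitors, was the only gene of the 7 to lie lower (gene ID 13797, chromosome 19, 59533697 to 59538535 on MM9). It read 304.8 and 272.6 on the Men1 siRNA arrays, against 698.9 and 537.9 on the scramble siRNA arrays. Both Men1 siRNA arrays lay near each other and well under both scramble siRNA arrays. The means were 288.7 ± 22.8 with Men1 siRNA and 618.4 ± 113.8 with scramble siRNA (SD, n = 2 each), and the log2 change was -1.09 ± 0.34, with a 95% interval of -1.92 to -0.26 (limma adjusted p = 0.279, unadjusted p = 0.0187). Expressed as a fold the interval was 0.264 to 0.838. Emx2 was also the only 1 of the 7 for which the first scramble siRNA array was the highest of the 4. Its promoter window holds as many CpG pairs as that of Neurod1. Whether the number of CpG pairs bears on the change of a gene was not tested.

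Neurod1, a bHLH activator that starts terminal differentiation of neurons, has 2 targets that overlap on the genome (gene ID 18012, chromosome 2). The brighter, at 79293470 to 79296769 on MM9, read 2043.3 and 1974.8 with Men1 siRNA and 923.6 and 1336.7 with scramble siRNA. The Men1 siRNA arrays agreed closely and both lay above the scramble siRNA arrays, which spread more widely. The means were 2009.1 ± 48.5 with Men1 siRNA and 1130.2 ± 292.1 with scramble siRNA (SD, n = 2 each), and the log2 change was 0.85 ± 0.35 (95% interval -0.01 to 1.72, limma adjusted p = 0.373). The second target, at 79292795 to 79296733, read 56.4 and 75.1 with Men1 siRNA and 63.3 and 144.9 with scramble siRNA. Only 1 of its 4 values reached 100 and the groups overlapped, so no fold is given, and averaging the log2 values of both targets brought the change of Neurod1 to 0.15.

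Neurod2, which maintains the programme of postmitotic cortical neurons, lies on chromosome 11, 98187856 to 98190908 on MM9 (gene ID 18013). It read 9423.1 and 7843.6 with Men1 siRNA and 4893.8 and 5778.0 with scramble siRNA. The lower Men1 siRNA array was still above the higher scramble siRNA array. The means were 8633.4 ± 1116.8 with Men1 siRNA and 5335.9 ± 625.2 with scramble siRNA (SD, n = 2 each), and the log2 change was 0.69 ± 0.34 (95% interval -0.13 to 1.51, limma adjusted p = 0.432). Among the 4 genes that lay higher, Neurod2 moved least when single arrays were left out, with a change between 0.56 and 0.83.

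Neurod6, the related bHLH factor of postmitotic projection neurons (gene ID 11922, chromosome 6, 55627815 to 55631050 on MM9), overlapped between the groups, unlike the brighter target of Neurod1 and that of Neurod2. Its target read 4394.5 and 3040.5 with Men1 siRNA and 2367.9 and 4364.7 with scramble siRNA. The first array of Men1 siRNA and the second of scramble siRNA were nearly equal, and each group held 1 high and 1 low array. The means were 3717.5 ± 957.5 with Men1 siRNA and 3366.3 ± 1411.9 with scramble siRNA (SD, n = 2 each). The log2 change was 0.19 ± 0.44 (95% interval -0.88 to 1.25, limma adjusted p = 0.884). Without the first scramble siRNA array it was -0.26, and without the first Men1 siRNA array -0.08. Whether Neurod6 differs from Neurod1 and Neurod2 in its response was not tested.

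Tbr1, the T-box factor of deep-layer corticothalamic neurons, lies on chromosome 2, 61642509 to 61652170 on MM9 (gene ID 21375). It read 3150.4 and 2902.6 with Men1 siRNA and 1449.5 and 2353.3 with scramble siRNA. The groups did not overlap, with the scramble siRNA arrays far apart from each other. The means were 3026.5 ± 175.3 with Men1 siRNA and 1901.4 ± 639.1 with scramble siRNA (SD, n = 2 each), and the log2 change was 0.71 ± 0.38 (95% interval -0.22 to 1.64, limma adjusted p = 0.470). It was 0.36 without the first scramble siRNA array and 1.06 without the second.

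Bcl11b, the zinc finger factor known as Ctip2 that shapes subcerebral projection neurons, lies on chromosome 12, 109153422 to 109241424 on MM9 (gene ID 58208). It read 979.0 and 1040.0 with Men1 siRNA and 368.6 and 759.2 with scramble siRNA. Both Men1 siRNA arrays were above both scramble siRNA arrays, and the first scramble siRNA array was far below the other 3. The means were 1009.5 ± 43.1 with Men1 siRNA and 563.9 ± 276.2 with scramble siRNA (SD, n = 2 each), and the log2 change was 0.93 ± 0.44 (95% interval -0.14 to 2.01, limma adjusted p = 0.422). This was the largest positive change among the 7 genes, and it was 0.41 without the first scramble siRNA array. Fezf2, which acts upstream of Bcl11b in subcerebral neurons (gene ID 54713, chromosome 14, 13174615 to 13178358 on MM9), read 281.0 and 97.9 with Men1 siRNA and 64.2 and 213.1 with scramble siRNA. Each group had 1 array under 100 and the groups overlapped. The fitted log2 change of 0.50 ± 0.74 (95% interval -1.30 to 2.31, limma adjusted p = 0.799) spans both directions.

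**Figure D3:**
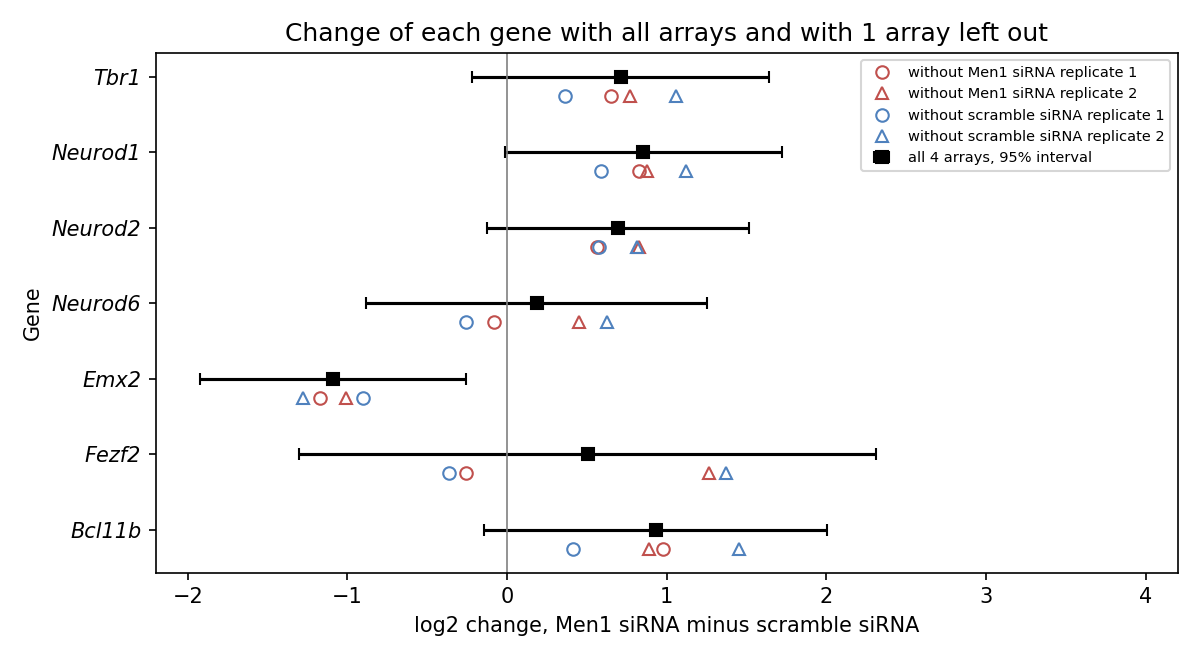
Log2 change, Men1 siRNA minus scramble siRNA, of the 7 genes at their brightest target, with black squares for all 4 arrays, bars for the 95% interval and open symbols for the value with 1 array left out. Neurod6 and Fezf2 cross 0 when some arrays are left out, which the other genes could not do because their groups do not overlap. Among those other genes, Tbr1 and Bcl11b move most when the first scramble siRNA array is left out.

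The 4 genes that lay higher share 1 feature of the arrays. The first scramble siRNA array gave the lowest of the 4 values for 6 of the 7 genes, all but Emx2, whereas it was lowest for 33.2% of all genes and for 36.8% of the 12648 genes at 100 or more on all arrays. Measured from each gene's mean over the 4 arrays on the log2 scale, the median of the 7 genes was 0.42 and 0.21 on the Men1 siRNA arrays, against -0.69 and 0.06 on the scramble siRNA arrays. For Neurod1, Neurod2 and Emx2, however, the second scramble siRNA array was nearer on the log2 scale to the first than to either Men1 siRNA array. Without the first scramble siRNA array the changes were 0.36 for Tbr1, 0.59 for Neurod1, 0.57 for Neurod2, 0.41 for Bcl11b and -0.90 for Emx2. Their signs could not reverse by this omission, because the groups of these genes did not overlap. The part of this 1 array in the difference between the groups was not tested.

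Genes related to these factors gave values in both directions. Of 13 relatives measured, which are other bHLH, T-box and zinc finger factors of neurons, 9 changes were positive, 0 passed the test across all targets, 4 lay higher and 2 lower on both Men1 siRNA arrays, and the median log2 change was 0.33. That median was 0.11 without the first Men1 siRNA array, 0.46 without the second and 0.17 without the first scramble siRNA array. Over all genes, 1 target each, 0.410% passed (0.0372% higher and 0.372% lower), and 25.8% lay higher and 21.7% lower. Bcl11a, the paralogue of Bcl11b, read 3089 and 3217 with Men1 siRNA and 1512 and 2812 with scramble siRNA (log2 change 0.61, limma adjusted p = 0.558), again with the first scramble siRNA array lowest. Eomes, the T-box factor of intermediate progenitors and a relative of Tbr1, read 397 and 141 with Men1 siRNA and 246 and 144 with scramble siRNA, so its groups overlapped. Both genes were picked as paralogues after their values were seen. By the smallest p the relatives named are Fezf1, Bhlhe23 and Neurod4. Fezf1, the paralogue of Fezf2, read 66.7 and 166 with Men1 siRNA and 48.3 and 49.0 with scramble siRNA, a mean at least 1.05-fold higher. Bhlhe23 read 54.8 and 45.4 with Men1 siRNA and 323 and 64.4 with scramble siRNA, at least 1.44-fold lower in the means of log2 values. Neurod4 lay under 100 on all 4 arrays.

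For partners and inhibitors of the NeuroD factors, the sign of the median log2 change depended on 1 array. Of 11 measured, 0 passed, 2 lay higher and 4 lower on both Men1 siRNA arrays, and 3 of the 11 changes were positive, with a median of -0.31. Without the second Men1 siRNA array the median was 0.02, and without any other single array it lay between -0.35 and -0.28. Hes1, a Notch effector that represses proneural bHLH genes, read 41.7 and 138 with Men1 siRNA and 301 and 266 with scramble siRNA. Both Men1 siRNA arrays were lower, 1 of them under 100 (log2 change -1.90 ± 0.59, limma adjusted p = 0.279). Hey1, another Notch effector, read 325 and 609 with Men1 siRNA and 1027 and 1015 with scramble siRNA (log2 change -1.20 ± 0.41, limma adjusted p = 0.310). Tcf3, an E protein that dimerises with NeuroD factors, read 1897 and 1568 with Men1 siRNA and 2904 and 2558 with scramble siRNA (log2 change -0.66, limma adjusted p = 0.450). All 3 lay lower on both Men1 siRNA arrays, while Id4, an inhibitor of E proteins, lay higher on both, with 747 and 960 for Men1 siRNA and 330 and 655 for scramble siRNA (log2 change 0.87, limma adjusted p = 0.453).

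Among 14 factors of dorsal telencephalic progenitors, the group to which Emx2 belongs by role, 0 passed, 4 lay higher and 1 lower on both Men1 siRNA arrays, and the median log2 change was 0.39. That median was 0.06 without the first Men1 siRNA array, 0.83 without the second and 0.17 without the first scramble siRNA array. A pair of nuclear receptors that pattern the cortex gave opposite values. Nr2f1 read 21076 and 22699 with Men1 siRNA and 9317 and 10360 with scramble siRNA, a log2 change of 1.15 ± 0.32 (limma adjusted p = 0.242). Nr2f2 read 387 and 471 with Men1 siRNA and 1234 and 1167 with scramble siRNA, a log2 change of -1.49 ± 0.33 (limma adjusted p = 0.171). For both, replicates were close and the groups far apart, yet neither passed. Insm1, a zinc finger factor of neurogenic progenitors, read 481 and 524 with Men1 siRNA and 204 and 260 with scramble siRNA (log2 change 1.12, limma adjusted p = 0.267). Pax6, a factor of radial glia that is known to oppose Emx2 in area patterning, read 638 and 284 with Men1 siRNA and 229 and 214 with scramble siRNA (log2 change 0.95, limma adjusted p = 0.437).

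Other factors of postmitotic cortical neurons gave 0 of 23 past the test, 9 higher and 2 lower on both Men1 siRNA arrays, with a median log2 change of 0.34 and the first scramble siRNA array lowest for 14. The median was 0.16 without the first scramble siRNA array, 0.51 without the second and 0.20 without the first Men1 siRNA array. Pou3f3, a POU factor of upper-layer neurons, stood out in size. It read 1008 and 1152 with Men1 siRNA and 148 and 277 with scramble siRNA, a log2 change of 2.41 ± 0.42 (limma adjusted p = 0.0999). Its Men1 siRNA arrays were both several times the scramble siRNA arrays, and it still missed the threshold. Rorb, a nuclear receptor of layer 4 neurons, read 225 and 271 with Men1 siRNA and 96.6 and 106 with scramble siRNA (log2 change 1.29, limma adjusted p = 0.216). Tshz2, a zinc finger factor, read 343 and 101 with Men1 siRNA and 569 and 900 with scramble siRNA (log2 change -1.94, limma adjusted p = 0.290), and Zfpm2 lay under 100 on all 4 arrays.

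Effector genes listed for projection neurons carry out transmission, guidance and signalling, and some, such as Reln and Fstl1, are made by other cells. Of these 20 genes 0 passed the test, and 7 lay higher and 3 lower on both Men1 siRNA arrays. The median log2 change was 0.46, and the first scramble siRNA array was lowest for 14. Without the first scramble siRNA array the median was 0.20, without the second 0.79 and without the first Men1 siRNA array 0.30. Camk4, a calcium-dependent kinase, read 803 and 1051 with Men1 siRNA and 309 and 455 with scramble siRNA (log2 change 1.29, limma adjusted p = 0.253). Rasgrf2, a Ras exchange factor of upper-layer neurons, read 570 and 999 with Men1 siRNA and 254 and 410 with scramble siRNA (log2 change 1.23, limma adjusted p = 0.326). Reln, the secreted guide of layering made by Cajal-Retzius cells, read 2448 and 3448 with Men1 siRNA and 1559 and 1536 with scramble siRNA (log2 change 0.91, limma adjusted p = 0.345). Fstl1, a secreted glycoprotein also made by mesenchymal cells, lay the other way, with 758 and 948 for Men1 siRNA and 2273 and 1581 for scramble siRNA (log2 change -1.16, limma adjusted p = 0.282).

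Markers of other cell types varied over the same arrays. Of 15 markers of ventral forebrain and GABAergic neurons, a lineage apart from projection neurons, 14 changes were positive with a median of 0.60, 9 lay higher and 1 lower on both Men1 siRNA arrays, 0 passed, and the first scramble siRNA array was lowest for 13. Leaving out single arrays gave medians of 0.40 to 0.81. Their summed intensity was 39261 and 34680 with Men1 siRNA and 20889 and 30993 with scramble siRNA. This sum, and the median of the list on each array, had the same order of the 4 arrays as Tbr1, Neurod1 and Neurod2. Gene by gene, the first Men1 siRNA array was highest for 8 of the 15 and the second for 5. Gad1, which makes GABA, read 2352 and 1978 with Men1 siRNA and 1004 and 1401 with scramble siRNA (log2 change 0.86, limma adjusted p = 0.371). The brightest of the list, Calb2, Dlx1 and Slc32a1, had log2 changes of 0.69, 0.60 and 0.54. Gad2 and Sst, by p, had 1.23 and 1.11, and Dlx5 was the exception at -1.72 (limma adjusted p = 0.181), with 1135 and 655 for Men1 siRNA and 2795 and 2897 for scramble siRNA. Only Vip of this list lay under 100 on all 4 arrays.

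The 15 glial markers summed to 23942 and 19138 with Men1 siRNA and 16042 and 19485 with scramble siRNA, overlapping between groups, with a median log2 change of 0.33, 0 past the test and the first scramble siRNA array lowest for 9. That median was 0.67 without the second scramble siRNA array and 0.54 without the second Men1 siRNA array. Sox10, a factor of oligodendrocytes and neural crest, had a log2 change of -1.16, against 1.12 for Olig2 and 1.08 for Mbp, a myelin protein gene. Mag read 99.98 and 307 with Men1 siRNA and 57.8 and 62.7 with scramble siRNA. This is at least 1.75-fold higher in the means of log2 values, but only 1 array reached 100, so the bound rests on that array. The brightest glial markers, Olig1, Aldh1l1 and Slc1a3, had 0.70, 0.44 and 0.18. Of 14 neuroblast markers 1 passed, Gata2, a zinc finger factor, which read 83.9 and 83.5 with Men1 siRNA and 6002 and 3452 with scramble siRNA, at least 45.5-fold lower (limma adjusted p = 0.0254). Ret, a receptor tyrosine kinase, was at least 2.27-fold higher without passing (limma adjusted p = 0.146), Gata3 had a change of -1.83, and the brightest, Chga, Chgb and Mycn, had 0.64, 0.70 and 0.46. Hand1 and Alk lay under 100 on all 4 arrays.

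Fibroblast markers lay lower with Men1 siRNA. All but 1 of 14 lay lower on both Men1 siRNA arrays, 4 of them past the test, with a median log2 change of -2.30, and their sums were 10920 and 11053 with Men1 siRNA against 64064 and 60416 with scramble siRNA. Col6a2, Col1a1, Col6a1 and Col1a2, all collagen chains, fell, with log2 changes of -5.75, -4.37, -4.57 and -3.57 (limma adjusted p = 0.0254, 0.0329, 0.034 and 0.034 in that order). Dcn, a proteoglycan, and Thy1, which neurons also express, are among the brightest of the list and had -2.63 and -0.20. The 13 endothelial and immune markers summed to 3828 and 4043 with Men1 siRNA and 14421 and 9019 with scramble siRNA, with 0 past the test, 9 lower on both Men1 siRNA arrays and a median of -1.53. Their median was -1.01 without the first scramble siRNA array. Without the second it was -1.88, where that of the fibroblast markers was -1.70. Cdh5, the endothelial cadherin, had a log2 change of -3.18 (limma adjusted p = 0.0517), Cd14 -2.23 and Kdr -2.01, and Flt1 was at least 4.79-fold lower. The brightest of them, Pecam1, Cd68 and Csf1r, had -1.74, -1.19 and -1.34. The 10 red cell markers summed to 55657 and 63732 with Men1 siRNA and 46395 and 24259 with scramble siRNA, 0 passed, and 4 lay under 100 on all arrays. Hbb-b2 had a log2 change of 1.72 (limma adjusted p = 0.170), Hbb-b1 1.13, Hba-a1 0.86 and Hba-a2 0.52. Thus the fibroblast and the endothelial and immune markers had medians opposite in sign to the changes of Tbr1, Neurod1, Neurod2 and Bcl11b and like in sign to that of Emx2. The part of any of these markers in the values of the cortical factors was not tested.

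**Figure D4:**
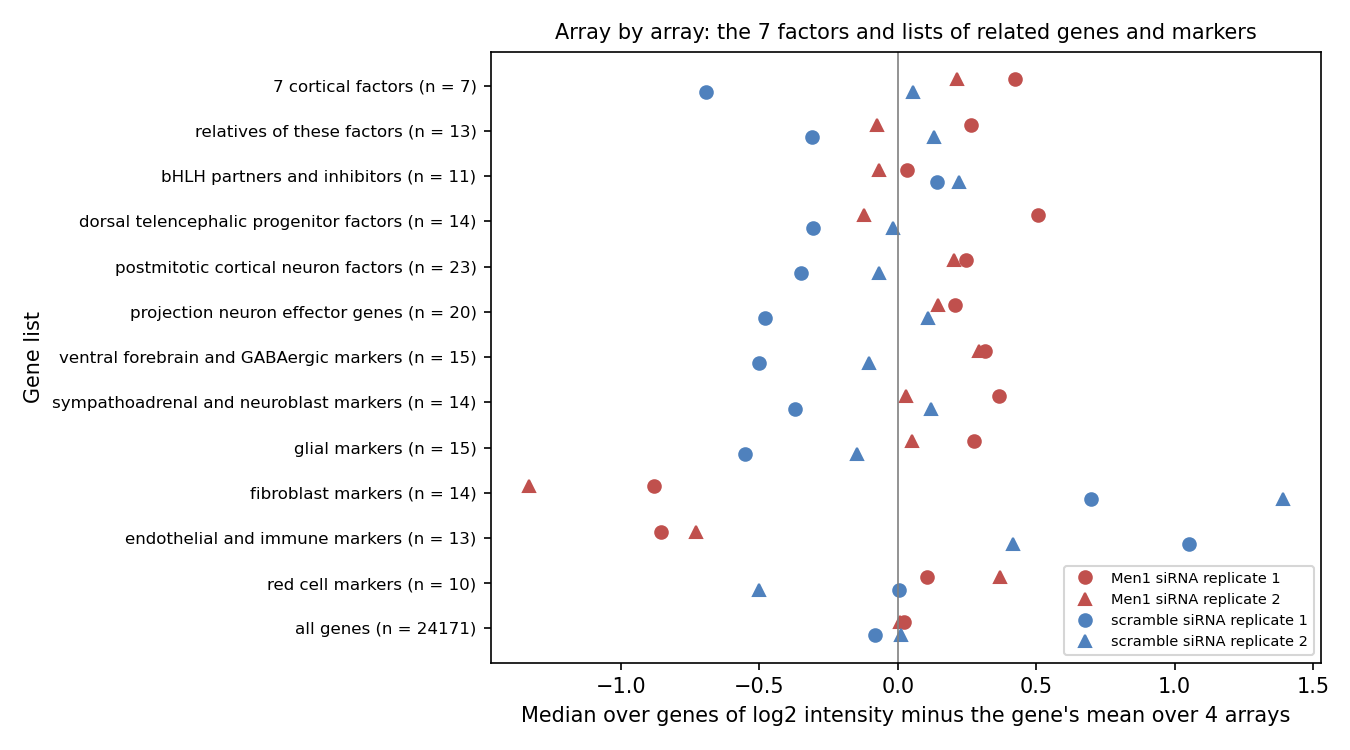
Median log2 value of each gene list on each array, taken from each gene's mean over the 4 arrays, with Men1 siRNA arrays in red and scramble siRNA arrays in blue. The 7 cortical factors are lowest on the first scramble siRNA array. So are the relatives, the progenitor, postmitotic and effector genes, the GABAergic, neuroblast and glial markers and, by a small amount, all genes. Fibroblast markers separate by group with Men1 siRNA low.

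The likeness of other genes was measured against the mean pattern of these factors, which includes Emx2 and so is flatter than that of the 4 higher genes. Over the 4 arrays, the log2 values of 12648 genes, each centred on its own mean, were set against that mean over the 6 factors at 100 or more on all arrays, by root mean square distance in log2 units. The nearest genes were Srpk2, a kinase of splicing factors, at 0.0232, Eif3f, a subunit of a translation initiation factor, at 0.0249, Elmo2, a regulator of Rac activation, at 0.0255, H13, a signal peptide peptidase, at 0.0274, and Tmem106c at 0.0313. Tbr1 itself lay at 0.180, Neurod2 at 0.185, Neurod6 at 0.209, Neurod1 at 0.241, Bcl11b at 0.347 and Emx2 at 0.798. In all, 1659 genes lay at least as close to this mean as Tbr1, the nearest of the 6, so that closeness to it describes the mean and not the pattern of any single factor. Emx2 was the farthest of the 6, as its values run the opposite way.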

How the data were processed

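Expression was measured on 4 one-colour arrays, 2 of Men1 siRNA and 2 of scramble siRNA, grouped by the labels. The authors deposited 1 linear intensity per target, computed by RMA (robust multi-array average), per the file headers; how background was corrected is not given in the sources used here. Although an Agilent array is named in the series text, the labelling protocol and file format are NimbleGen's. Of 44170 targets, 44155 had 3 probes; 1 control row of 5000 random probes was left out. On each array 40.2% to 41.0% of targets were below 100, and no detection call was used.

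The log2 of each intensity, without a pseudocount, was tested over all targets with limma 3.58.1 (R 4.3.3; lmFit, eBayes), two-sided, with group as the only term and Benjamini-Hochberg adjustment at 0.05. With 2 arrays against 2, an exact two-sided permutation p is at least 0.333, so none is given. Lists use the target with the highest mean per gene. If both values of a group were below 100, "at least" sets the brighter group's mean of log2 values against 100 or the dim value, whichever is higher per array. The number of arrays limits the precision. The fit was tested on simulated data.

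The genes and lists were chosen with earlier results of these data known. Named are every factor, Men1, up to 4 genes per list by smallest p and the 3 brightest of lists of other cell types and neuroblasts, and the 5 genes closest in pattern; other names were chosen after their values were seen. Some genes that this rule names are not reported here. List genes not found on the array were not analysed here. Symbols were updated by gene ID, matched for 21583 of 24203 IDs. Array coordinates are on MM9 as the files give them, with their counting base not stated; promoters are RefSeq's on GRCm38.p6, matched for 7 genes.

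Alternatives were the replicate block, each array left out, cyclic loess, median and quantile normalization, the authors' value table, filters on dim targets, 1 target per gene, the mean of targets, trended and robust priors, a pseudocount of 32, a floor of 100 and an adjusted p under 0.01; a crossed block was added after the data were seen. Files were read with pandas 2.3.3 and numpy 2.4.6 under Python 3.11.15, and plots drawn with matplotlib 3.10.9.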

Additional observations from a re-analysis of the deposited data

How the results depend on the processing

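No target of the 7 genes passed the threshold under any of the alternatives run, and between 0 and 5 of them had an unadjusted p under 0.05. Tbr1, Neurod1, Neurod2 and Bcl11b kept a positive log2 change and Emx2 a negative one under each alternative, with ranges without 1 array of 0.36 to 1.06, 0.59 to 1.12, 0.56 to 0.83, 0.41 to 1.45 and -1.28 to -0.90 in that order. As the groups of these genes did not overlap, leaving out 1 array or adding a pseudocount could not reverse a sign. Only the normalizations and, for Neurod1, the mean of targets could do so. The remaining alternatives left these log2 changes as they were. Neurod6 was -0.08 without Men1 siRNA replicate 1 and -0.26 without scramble siRNA replicate 1 (range -0.26 to 0.63), and Fezf2 was -0.26 and -0.36 under the same omissions (range -0.36 to 1.37). The smallest adjusted p over the alternatives was 0.0945 for Emx2, in the authors' value table, and 0.140 to 0.231 for the 4 positive genes. Of 165 recomputed list medians, 147 moved by less than the spread between replicates. These include the medians under both blocks and under the brightest target per gene, which could not move by construction. The median of partners and inhibitors of NeuroD factors turned to 0.02 without Men1 siRNA replicate 2, and fibroblast markers at -1.70 stood behind endothelial and immune markers at -1.88 without scramble siRNA replicate 2.

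The count of 150 targets past the threshold across the whole array was less stable, and the cause was not tested beyond what each alternative changes by construction. It was 0 to 0 without 1 array (3678 to 5799 at an unadjusted p under 0.05), 538 in the value table, 451 among targets at 100 or more on at least 2 arrays, 94 with the brightest target per gene fitted alone, 90 with the mean of targets, 1070 with a prior that follows intensity, 387 with a pseudocount of 32, 48 with a floor at 100 and 0 at an adjusted p under 0.01. Same-numbered arrays deviated from their group means with a correlation of -0.167. With 2 arrays per group the crossed value, 0.167, is the same number with its sign reversed by construction. Since the numbers within each group are not settled, whether they pair the arrays is unknown. The replicate block gave 144 targets and 0 of the 7 genes. A block with crossed numbers, added after the data were seen, gave 165. With 2 arrays per group and 40.2% to 41.0% of targets under 100, signal near background limits Fezf2 and the second Neurod1 target most; neither is in the value table.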
